A study of Mus musculus with 4 samples.

Results

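The effect of losing Cyp27a1 in livers that already lack the Cyp3a genes was described by setting the double knockout (DKO) library against the Cyp3a knockout (KO) library, over every gene with a mean of at least 1 CPM (counts per 1000000 counts, TMM-scaled) across the 4 libraries of the series. That rule kept 11743 of the 33639 genes listed. The DKO mouse carried global deletions of Cyp27a1 and Cyp3a and the Cyp3a KO mouse the Cyp3a deletion only, so both livers lacked Cyp3a and differed in genotype by the Cyp27a1 deletion. A Cyp27a1 KO and a wild type (WT) mouse make up the other pair, in which Cyp27a1 was lost with Cyp3a intact. All 4 were male, fed standard chow and otherwise untreated, and each genotype was 1 mouse and 1 library. In the labels the deleted P450 has the symbol of a human gene, Cyp3a4, so all mouse Cyp3a genes listed are reported. Age, strain and time of day of sampling are not stated in these sources. Total RNA was taken with the Qiagen RNeasy kit from tissue kept in RNAlater and made into TruSeq v2 libraries. Both deletions were global, so the liver reads out loss in every tissue and not in hepatocytes alone.

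The liver turns cholesterol into bile acids by a classical pathway that starts with Cyp7a1 and an alternative pathway that starts with Cyp27a1, the mitochondrial sterol 27-hydroxylase, which also shortens the side chain in the classical pathway. Without it, sterol intermediates and bile alcohols accumulate, and Cyp3a enzymes hydroxylate these in mouse liver. Bile acids feed back on Cyp7a1 through the nuclear receptor FXR, sterols restrain cholesterol synthesis by holding SREBP2 inactive, and the xenobiotic receptors PXR and CAR raise detoxifying enzymes in response to toxic steroids and bile acids.

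Libraries held 50280651 counts in the DKO, 50378101 in the Cyp3a KO, 49980012 in the Cyp27a1 KO and 49745860 in WT, and 1 count was worth 0.0185 CPM in the DKO and 0.0200 CPM in the Cyp3a KO after TMM scaling. There was no replicate of any genotype, so the variation between animals was not measured, no test was run, and every statement compares these libraries. A gene was taken as higher or lower where the log2 fold of CPM plus 0.5 was at least 1 in size and the ratio of counts had an exact 95% interval (Clopper-Pearson) that excluded 1. Folds in the text are ratios of CPM, with that interval in parentheses. The interval covers counting error only. It may not cover all of that error, since reads that carry no molecular identifier can be copies of 1 molecule. Hepatocyte markers, checked against the tissue label, summed to 105679 CPM in the DKO and 81563 CPM in the Cyp3a KO. Of 10 measured members 0 passed the rule, where 6.72% of all genes did. Clock genes differed between the livers: Nr1d1, a circadian repressor, stood at 29.2 CPM in the DKO and 143 CPM in the Cyp3a KO, and its activator partner Arntl at 1.98 CPM in the DKO and 10.6 CPM in the Cyp3a KO. The part of the clock difference in the results below was not tested.

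Cyp27a1 (chromosome 1, 74713574 to 74737892 in GRCm38) fell to 65.3 CPM in the DKO, against 727 CPM in the Cyp3a KO, which is 11.1-fold lower (10.7 to 11.5). The residual level was 8.99% of that in the Cyp3a KO, and the Cyp27a1 KO held a like amount at 57.6 CPM, against 746 CPM in WT. The Cyp3a genes, which code for the main steroid-hydroxylating P450 family of liver, had a low summed level on both sides: the 9 listed members summed to 13.2 CPM in the DKO and 2.70 CPM in the Cyp3a KO, against 25248 CPM in the Cyp27a1 KO and 9605 CPM in WT. Of the 8 that passed the level filter, Cyp3a11, Cyp3a13 and Cyp3a41a had a mean of at least 1 CPM over the DKO and Cyp3a KO libraries as well. Cyp3a11 (chromosome 5) had 258 counts in the DKO and 8 in the Cyp3a KO, and Cyp3a41a had 292 counts in the DKO and 5 in the Cyp3a KO. Both passed the rule, at 29.8-fold (14.9 to 69.8) and 54.0-fold (22.9 to 167) higher in the DKO. Cyp3a41a was not low in the DKO against the livers with Cyp3a intact, at 5.39 CPM in the DKO, 0.0999 CPM in the Cyp3a KO, 4.46 CPM in the Cyp27a1 KO and 2.12 CPM in WT. Cyp3a13 did not differ by more than counting error, with 143 counts in the DKO and 122 in the Cyp3a KO. Cyp3a25 had 19 counts in the DKO and 0 in the Cyp3a KO, at least 5.85-fold higher with 3 counts as the floor, Cyp3a44 had 2 and 0, and Cyp3a59 had 3 and 0. Cyp3a16 and Cyp3a41b had 0 counts in both. Some members of the family are close copies of one another, so the split of reads among those is uncertain.

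Across the liver transcriptome 789 of 11743 genes passed the rule (6.72%): 472 were higher in the DKO (4.02%) and 317 were lower (2.70%). The higher genes took 7.43% of the counts in the DKO and 2.11% in the Cyp3a KO, and the lower genes 2.67% in the DKO and 16.1% in the Cyp3a KO. At 4-fold 108 genes were higher and 84 lower, and at 16-fold 17 were higher and 20 lower. The median gene had a log2 fold of -0.02 and the quartiles lay at -0.25 and 0.22. In whole-liver RNA, fewer cells of a type and less RNA per cell cannot be told apart. Of the 11743 genes, 129 were kept by the level filter through the DKO library alone, and 77 of these were higher, a direction the filter favours. At the edge of the filter, Tgif2, Nusap1 and Clmp lay just inside at 1.001, 1.002 and 1.002 CPM, and Tmem119, Ntm and Casp4 just outside at 0.999, 0.999 and 0.998 CPM. The deposited TPM moved the median gene by 0.23 on the log2 scale and gave 736 higher (6.64%) and 211 lower genes (1.90%) of 11091 at a mean of at least 1 TPM, so that 77.7% of calls were higher, against 59.8% by counts. Once TPM was recentred on the median gene, 464 genes were higher (4.18%) and 312 lower (2.81%), of which 59.8% were higher. Of the 789 genes, 619 passed the same way on recentred TPM, 0 passed the other way and 786 had the same sign.

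**Figure D1:**
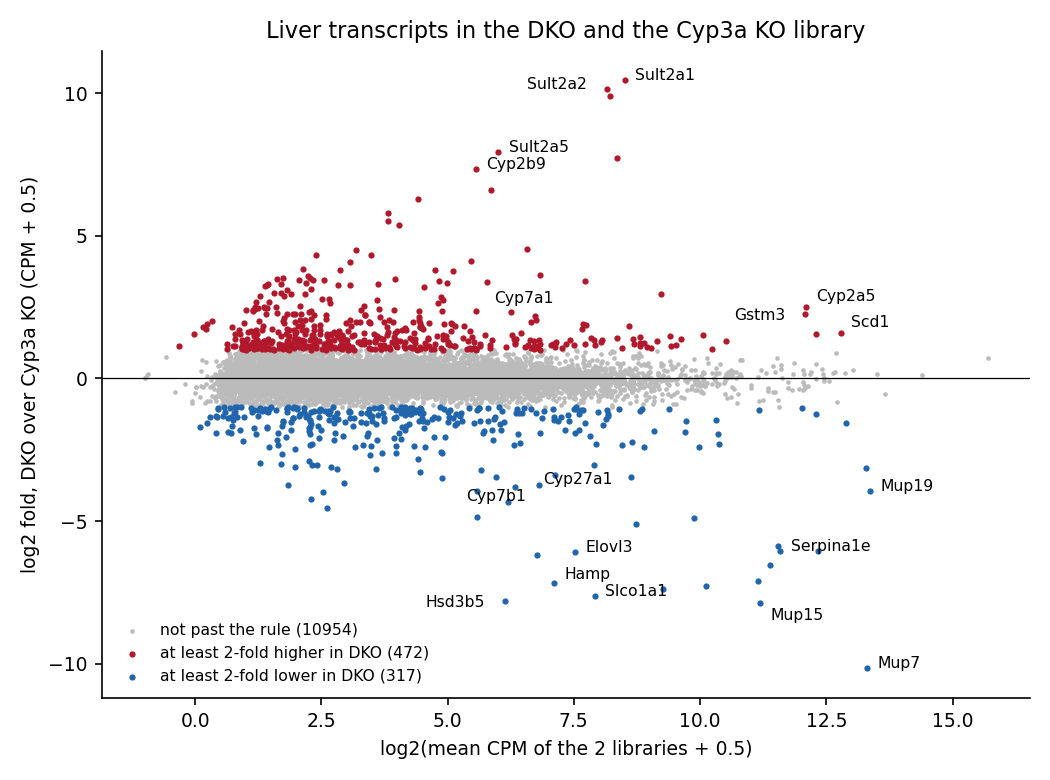
Each point is 1 of 11743 genes, with the log2 mean CPM of the DKO and Cyp3a KO libraries (plus 0.5) on the x axis and the log2 fold of DKO over Cyp3a KO on the y axis; red points are the 472 higher and blue points the 317 lower genes. Sult2a1 stood highest at 10.45 and Mup7 lowest at -10.16, and Mup19 shows that some of the most abundant transcripts were among the lower ones.

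In bile acid synthesis Cyp7a1 was higher in the DKO, while Cyp7b1, the next enzyme of the alternative pathway, was lower. Of 20 listed genes 18 passed the level filter; 3 were higher in the DKO (Cyp7a1, Cyp39a1, Akr1d1), 3 were lower (Cyp27a1, Cyp7b1, Hsd3b7), and the list median was -0.16, against -0.02 over all genes. Cyp7a1, the rate-limiting enzyme of the classical pathway (chromosome 4, 6265612 to 6275633), stood at 173 CPM in the DKO and 41.3 CPM in the Cyp3a KO, 4.19-fold higher (3.999 to 4.40). In the other pair it stood at 362 CPM in the Cyp27a1 KO and 22.4 CPM in WT, so the DKO lay below the Cyp27a1 KO and above both livers with Cyp27a1. Cyp7b1, the oxysterol 7-alpha-hydroxylase that follows Cyp27a1 in the alternative pathway, had 15.4 CPM in the DKO and 209 CPM in the Cyp3a KO, 13.6-fold lower (12.7 to 14.6), while it had 150.2 CPM in the Cyp27a1 KO and 231 CPM in WT. The DKO was thus the 1 liver of the 4 with little Cyp7b1 transcript; Cyp7b1 is also on the male-biased list described below. Cyp39a1, which hydroxylates an oxysterol on the way to bile acids, had 52.7 CPM in the DKO and 13.4 CPM in the Cyp3a KO, 3.93-fold higher (3.61 to 4.28), but 12.0 CPM in the Cyp27a1 KO and 99.7 CPM in WT, the opposite direction.

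Among the shared steps, Akr1d1, the 5-beta-reductase that sets the bile acid ring shape, stood at 619 CPM in the DKO and 283 CPM in the Cyp3a KO (2.19-fold higher). Hsd3b7, which oxidises the 3-hydroxyl group, stood at 216 CPM in the DKO and 454 CPM in the Cyp3a KO (2.10-fold lower), and lost its call under library-total scaling and on the deposited TPM. Cyp8b1, the 12-alpha-hydroxylase that directs synthesis to cholic acid, had 421 CPM in the DKO and 663 CPM in the Cyp3a KO (log2 fold -0.66). Scp2, the peroxisomal thiolase of side-chain cleavage, came close to the rule from below, with 2042 CPM in the DKO and 4044 CPM in the Cyp3a KO (log2 fold -0.99). The other measured members of the list did not pass. Log2 folds below 0 were -0.47 for Hsd17b4, -0.28 for Akr1c6, -0.24 for Acot8, -0.18 for Baat, -0.14 for Acnat1 and -0.10 for Amacr. Those above 0 were 0.18 for Slc27a5, 0.24 for Acox2, 0.36 for Cyp2c70 and 0.61 for Acnat2. These include the racemase, oxidase, ligase and transferases that finish the side chain and add taurine or glycine, and Cyp2c70, which makes muricholic acids in the mouse.

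Among the listed bile acid and organic anion carriers, 1 uptake carrier was lower and 2 exporters were higher. Slco1a1, a sinusoidal organic anion uptake carrier that is male-biased in mouse liver, fell to 1.94 CPM in the DKO, against 478 CPM in the Cyp3a KO, 247-fold lower (204 to 302); it was the only 1 of the 7 measured uptake carriers on the list past the rule. Of 8 measured exporters 2 were higher: Abcc4, a basolateral pump that returns bile acids to blood, stood at 20.7 CPM in the DKO and 3.40 CPM in the Cyp3a KO, and Abcb1a, a drug efflux pump, at 23.7 CPM in the DKO and 7.19 CPM in the Cyp3a KO. Abcc4 had the same contrast in the other pair, with 22.7 CPM in the Cyp27a1 KO and 3.24 CPM in WT, while Abcb1a had 3.37 CPM in the Cyp27a1 KO and 2.75 CPM in WT. Of the 8 measured FXR and FGF15 feedback genes, Cyp7a1 alone passed. Nr0b2 (SHP), the FXR-induced repressor of Cyp7a1 and the lowest member, had 24.3 CPM in the DKO and 46.3 CPM in the Cyp3a KO (log2 fold -0.92). Slc51b, a subunit of the basolateral bile acid exporter and an FXR target, lay below the level filter, and the naming rules below do not cover it. It had 107 counts in the DKO and 2 in the Cyp3a KO, a ratio of 49.5 with a counting interval of 13.4 to 414.

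Cholesterol synthesis genes were higher in the DKO through most of the pathway. Of 20 listed enzymes all 20 passed the level filter, 15 were higher in the DKO and 0 were lower. The median log2 fold was 1.21, against -0.02 over all genes. Recentred TPM gave 15 as well, with Sqle (log2 fold 1.02) in place of Mvk (0.99). Summed over the list, the DKO held 11799 CPM and the Cyp3a KO 4749 CPM, a 2.48-fold difference, with 3870 CPM in the Cyp27a1 KO and 1922 CPM in WT. Hmgcs1, which makes HMG-CoA, had 1589 CPM in the DKO and 551 CPM in the Cyp3a KO (2.89-fold). Acat2, the thiolase before it, had 246 CPM in the DKO and 96.3 CPM in the Cyp3a KO (2.55-fold).

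The kinases and decarboxylase of the mevalonate branch were higher by 2.09-fold (Mvk), 2.19-fold (Pmvk) and 2.48-fold (Mvd). The isoprenoid steps were higher by 2.63-fold (Idi1, 1139.7 CPM in the DKO and 433 CPM in the Cyp3a KO) and 2.21-fold (Fdps). Squalene synthase, Fdft1, stood 2.66-fold higher, and lanosterol synthase, Lss, 3.68-fold higher with 337 CPM in the DKO and 91.6 CPM in the Cyp3a KO. Sqle, the squalene epoxidase between them, had 248 CPM in the DKO and 125 CPM in the Cyp3a KO and stopped just short of the rule (log2 fold 0.98). Of the enzymes that turn lanosterol into cholesterol, Cyp51, Msmo1, Hsd17b7 and Dhcr7 were higher by 2.47-fold, 2.39-fold, 2.15-fold and 2.25-fold. Nsdhl, Tm7sf2, Sc5d and Ebp did not pass, with log2 folds of 0.97, 0.95, 0.54 and 0.10. On the deposited TPM without recentring 19 of the 20 were higher, so the number of exceptions depended on scaling.

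**Figure D2:**
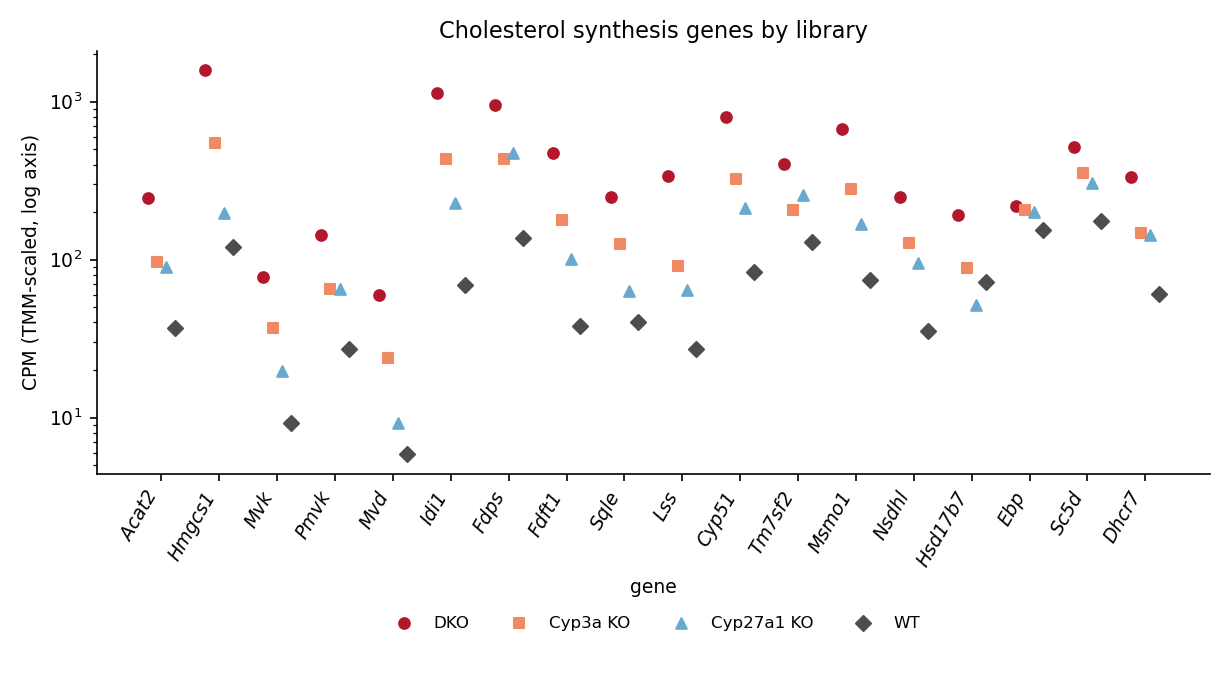
For 18 cholesterol synthesis genes in pathway order on the x axis, TMM-scaled CPM on a log axis, with 1 point per library and no error bars, since each genotype is 1 library. The DKO points lie above the other 3 libraries for all 18 genes shown, as for Lss at 337 CPM in the DKO and 91.6 CPM in the Cyp3a KO.

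SREBP2, the factor that drives these enzymes, binds sterol regulatory elements, often beside CCAAT boxes. The promoters of Hmgcs1 and Msmo1 are shown because they are the 2 of 15 list members matched in the promoter table that hold a full TCACNCCA element in the 250 bases before the start. Capitals mark TCACNCCA and CCAAT, read on either strand, in RefSeq sequence of GRCm38.p6: Hmgcs1 from chr13:119690101-119690350 on the plus strand, and Msmo1 from chr8:64733579-64733828 on the minus strand. Bases just after the start were found in a GENCODE transcript of Msmo1 and not in one of Hmgcs1, whose start is shown as RefSeq gives it.
Hmgcs1: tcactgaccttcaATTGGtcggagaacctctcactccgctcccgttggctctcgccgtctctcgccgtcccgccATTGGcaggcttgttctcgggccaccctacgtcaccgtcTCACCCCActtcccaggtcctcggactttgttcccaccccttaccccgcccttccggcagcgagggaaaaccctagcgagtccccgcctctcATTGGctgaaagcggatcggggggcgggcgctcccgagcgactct
Msmo1: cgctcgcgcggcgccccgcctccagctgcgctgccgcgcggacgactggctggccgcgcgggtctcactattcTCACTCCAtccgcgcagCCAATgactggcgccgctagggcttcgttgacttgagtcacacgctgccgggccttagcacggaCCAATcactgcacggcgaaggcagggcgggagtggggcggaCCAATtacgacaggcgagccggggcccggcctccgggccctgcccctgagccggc
Each holds 1 TCACNCCA and 3 CCAAT. Over the first listed promoter of each gene, TCACNCCA was in 3.58% of 27025 and CCAAT in 34.5%. In the list, counted likewise, these were in 2 of 15 and 13 of 15, and these motifs do not overlap one another. A match is a description of letters and was not set against binding.

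LXR targets and sterol efflux genes had a smaller median than synthesis genes. Of 10 LXR targets 4 were higher in the DKO and 0 lower, with a median of 0.42. Abcg5 and Abcg8, which together form the exporter of sterols into bile, were each 2.29-fold higher: Abcg5 stood at 194 CPM in the DKO and 84.4 CPM in the Cyp3a KO, and Abcg8 at 294 CPM in the DKO and 128 CPM in the Cyp3a KO. Pltp, a phospholipid transfer protein, was 2.41-fold higher, and Abcg1, a sterol exporter, 2.69-fold higher; Abcg1 fell short on recentred TPM (log2 fold 0.92). Srebf1, at the low end of the list, had 53.2 CPM in the DKO and 94.97 CPM in the Cyp3a KO (log2 fold -0.83). In the other pair Abcg5 and Abcg8 had log2 folds of -0.26 and -0.20.

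The sulfotransferases of the Sult2a cluster on chromosome 7, which add sulfate to bile acids and hydroxysteroids, held the largest upward fold of the comparison. Of 8 members 5 passed the level filter, 2 of them through the DKO library alone, and 4 were higher and 1 lower in the DKO. Sult2a1 had 39439 counts in the DKO and 1 in the Cyp3a KO, a ratio of 36454 whose counting interval ran from 6542 to 1439890.0. Sult2a2 had 32219 counts in the DKO and 6 in the Cyp3a KO, and Sult2a5 had 6907 counts in the DKO and 1 in the Cyp3a KO. The other pair held few reads of these 3 genes, with Sult2a1 at 0.442 CPM in the Cyp27a1 KO and 2.55 CPM in WT. Sult2a3 and Sult2a4 did not pass the level filter but had 42 and 30 counts in the DKO and 0 in the Cyp3a KO, at least 12.9-fold and 9.24-fold higher against a floor of 3 counts. Sult2a6 had 7 counts in the DKO and 1 in the Cyp3a KO.

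The last pair of members had another pattern. Sult2a7 stood at 157 CPM in the DKO and 68.5 CPM in the Cyp3a KO, with 53.7 CPM in the Cyp27a1 KO and 0.622 CPM in WT, so it was low in WT alone. Sult2a8, a bile acid sulfotransferase of mouse liver, fell to 151 CPM in the DKO, against 803 CPM in the Cyp3a KO (5.33-fold lower, 5.202 to 5.46). Summed over the 8 genes, the cluster held 1760 CPM in the DKO and 872 CPM in the Cyp3a KO, most of it Sult2a1 and Sult2a2 in the DKO and Sult2a8 in the Cyp3a KO. Members are close paralogs and reads may be split among them. The upstream sequences of Sult2a5, which rose, and Sult2a8, which fell, are shown side by side; Sult2a1, Sult2a2 and Sult2a7 are not shown. Capitals mark TCATGA, the centre of the inverted repeat that FXR, PXR and CAR can bind at Sult2a genes, searched on both strands in 250 bases of RefSeq sequence of GRCm38.p6: Sult2a5 from chr7:13623717-13623966 on the plus strand and Sult2a8 from chr7:14446588-14446837 on the minus strand.
Sult2a5: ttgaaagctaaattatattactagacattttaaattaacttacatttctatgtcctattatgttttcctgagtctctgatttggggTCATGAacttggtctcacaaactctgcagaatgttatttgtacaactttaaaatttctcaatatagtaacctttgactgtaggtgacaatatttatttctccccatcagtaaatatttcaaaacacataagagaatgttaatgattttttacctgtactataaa
Sult2a8: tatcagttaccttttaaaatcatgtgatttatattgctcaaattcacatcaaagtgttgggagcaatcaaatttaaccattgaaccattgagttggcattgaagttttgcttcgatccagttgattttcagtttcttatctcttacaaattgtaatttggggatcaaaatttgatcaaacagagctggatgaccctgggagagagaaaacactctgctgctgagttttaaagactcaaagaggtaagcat
Sult2a5 holds 1 TCATGA and Sult2a8 holds 0. Of the 5 Sult2a promoters matched 3 hold it, against 4.73% of the first listed promoters of all genes. Aligned to each other, the pair shown was 49.3% identical.

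Other sulfotransferases included Sult1e1, the estrogen sulfotransferase, with 27.1 CPM in the DKO and 0.0999 CPM in the Cyp3a KO (271-fold higher, 116 to 836), and Sult5a1, with 2.46 CPM in the DKO and 18.6 CPM in the Cyp3a KO (7.59-fold lower). The remaining 6 of 8 measured did not pass.

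Drug-metabolising P450s of the PXR and CAR type were higher in 5 of 10 measured genes and lower in 0, with a median of 1.03. Cyp2b10, the standard CAR target, stood at 995 CPM in the DKO and 353 CPM in the Cyp3a KO, and at 223 CPM in the Cyp27a1 KO and 99.3 CPM in WT. Its female-biased relatives had almost no reads outside the DKO: Cyp2b9 had 5051 counts in the DKO and 4 in the Cyp3a KO, and Cyp2b13 had 2266 counts in the DKO and 2 in the Cyp3a KO, a ratio of 1047 (counting interval 289.6 to 8653). These 2 passed the level filter through the DKO alone. Cyp2c39 was 4.29-fold higher. In the Cyp2a group, which hydroxylates coumarin and steroids, Cyp2a5 reached 7399.9 CPM in the DKO, against 1309.7 CPM in the Cyp3a KO (5.65-fold higher), Cyp2a4 had 14.8 CPM in the DKO and 1.10 CPM in the Cyp3a KO, and Cyp2a22 had 20.7 CPM in the DKO and 0.559 CPM in the Cyp3a KO; the first pair are near-identical copies.

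The flavin monooxygenases, which oxidise amines and sulfides, included Fmo2, Fmo4 and Fmo5, which were higher by 3.62-fold, 2.42-fold and 2.04-fold. Their list of 5 genes summed to 1999 CPM in the DKO and 972 CPM in the Cyp3a KO. The Cyp27a1 KO held 1589 CPM and WT 1638 CPM, so for this sum the Cyp3a KO was the liver that stood apart. Of 19 glutathione S-transferases 8 were higher and 2 lower: Gsta1 stood at 384 CPM in the DKO and 35.2 CPM in the Cyp3a KO, and Gstm3 at 7182 CPM in the DKO and 1504 CPM in the Cyp3a KO. Gstp1, a male-biased member, fell to 320.4 CPM in the DKO, against 1685 CPM in the Cyp3a KO, and its copy Gstp2 to 11.6 CPM in the DKO, against 49.6 CPM in the Cyp3a KO. Of 15 glucuronosyltransferases 2 were higher and 5 lower. Ugt1a5 was 3.78-fold higher, while Ugt2b38, Ugt3a1 and Ugt1a6a were 4.31-fold, 3.54-fold and 2.94-fold lower; the Ugt1a transcripts share exons. Of 14 measured NRF2 antioxidant genes Srxn1, Nqo1 and Hmox1 were higher, by 2.90-fold, 3.10-fold and 2.18-fold.

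The male pattern of liver gene expression was lower in the DKO. Sex differences in rodent liver follow the pulsatile male or steadier female pattern of growth hormone, read through STAT5b, and Bcl6 represses female-biased genes in male liver. Of 23 measured male-biased genes 19 were lower, Ces2c was higher, and the list had a median log2 fold of -1.94. Hsd3b5, a male-specific steroid dehydrogenase, had 7 counts in the DKO and 6954 in the Cyp3a KO, 1075-fold lower (521 to 2674). Elovl3, a fatty acid elongase, had 4.78 CPM in the DKO and 361 CPM in the Cyp3a KO (75.5-fold lower). Serpina1e, an alpha-1-antitrypsin copy, had 90.4 CPM in the DKO and 6080.0 CPM in the Cyp3a KO (67.2-fold lower). In the other pair these genes stood at 10.9, 428 and 5437 CPM in the Cyp27a1 KO and 27.6, 802 and 10558 CPM in WT, in the same order.

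Female-biased genes were higher in 14 of 29 measured, lower in 3, with a median of 0.73, and 3 of the 29 passed the level filter through the DKO alone. The higher ones included Sult2a1, Sult2a2 and Cyp2b9, given above, and Atp6v0d2, a proton pump subunit, with 83.5 CPM in the DKO and 4.31 CPM in the Cyp3a KO. The lower ones were Cyp4a14, Cyp4a10 and Cyp2c69, the first 2 of which are targets of PPAR-alpha as well. Cyp4a14 had 116 CPM in the DKO and 582 CPM in the Cyp3a KO, and Cyp2c69 had 14.9 CPM in the DKO and 40.1 CPM in the Cyp3a KO. All 4 livers are labelled male, and Y-linked transcripts did not separate the pair: Ddx3y had 3410 counts in the DKO and 3255 in the Cyp3a KO, and Kdm5d, Uty and Eif2s3y had log2 folds of -0.14, -0.00 and 0.03. Several genes of both lists lie in other lists here, such as Cyp7b1, Slco1a1 and the sulfotransferases, and are counted in each.

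Major urinary proteins, pheromone carriers made in bulk by male liver on chromosome 4, were lower in 20 of 21 genes (median log2 fold -4.90). Together they held 2440.1 CPM in the DKO and 79920.1 CPM in the Cyp3a KO, 32.8-fold lower, against 38392 CPM in the Cyp27a1 KO and 91477 CPM in WT, 2.38-fold lower. Mup7 fell to 17.2 CPM in the DKO, against 20285 CPM in the Cyp3a KO (1180.3-fold lower, 1107 to 1260.0). Mup15 fell to 19.3 CPM in the DKO, against 4674 CPM in the Cyp3a KO, and Mup8 had 0 counts in the DKO and 561 in the Cyp3a KO, at least 202-fold lower. Mup19 kept the most transcript of the family, with 1306 CPM in the DKO and 19942 CPM in the Cyp3a KO (15.3-fold lower), and Mup5, outside the rule, had 3.75 CPM in the DKO and 6.03 CPM in the Cyp3a KO. Mup2, Mup17, Mup11, Mup12, Mup14, Mup3 and Mup13 had log2 folds between -7.26 (Mup2) and -5.09 (Mup13). Because the genes are near-identical, the family sum depends less on how reads were split than the value of any copy.

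The Mup15 and Mup19 promoters are shown because they were 94.1% identical over 256 aligned positions while the genes fell 242-fold and 15.3-fold. Capitals mark CCAAT on either strand in 250 bases of RefSeq sequence of GRCm38.p6, Mup15 from chr4:61439705-61439954 and Mup19 from chr4:61782225-61782474, both on the minus strand.
Mup15: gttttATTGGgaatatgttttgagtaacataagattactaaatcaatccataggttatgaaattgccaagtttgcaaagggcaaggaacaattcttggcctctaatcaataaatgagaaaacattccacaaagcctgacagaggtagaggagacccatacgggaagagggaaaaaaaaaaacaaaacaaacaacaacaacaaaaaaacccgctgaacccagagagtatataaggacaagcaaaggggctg
Mup19: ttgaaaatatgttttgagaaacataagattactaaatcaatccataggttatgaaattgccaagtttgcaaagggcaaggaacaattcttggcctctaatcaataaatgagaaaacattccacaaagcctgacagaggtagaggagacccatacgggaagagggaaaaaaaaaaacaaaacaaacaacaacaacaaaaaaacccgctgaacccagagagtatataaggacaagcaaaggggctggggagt
Mup15 holds 1 CCAAT and Mup19 holds 0. Of the 14 Mup promoters matched 6 hold it, against 34.5% of the first listed promoters of all genes. TTCNNNGAA, the core STAT letters, was in 0 of the 14 within this window, against 7.18% of the first listed promoters.

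**Figure D3:**
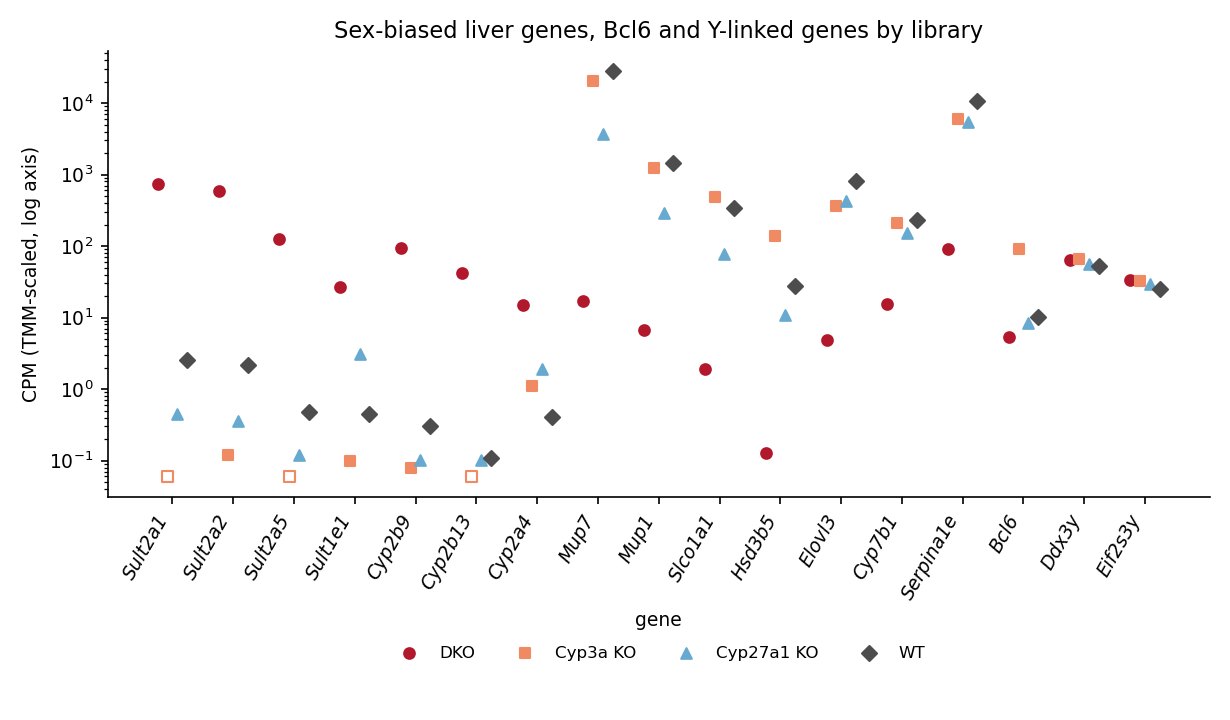
For sex-biased genes, Bcl6 and Y-linked genes on the x axis, TMM-scaled CPM on a log axis with 1 point per library; open points mark fewer than 3 counts, drawn at the level of 3 counts. The DKO stands apart upward for Sult2a1 to Cyp2a4 and downward for Mup7 to Serpina1e, while Ddx3y and Eif2s3y, on the Y chromosome, lie together.

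In the growth hormone axis itself 1 of 16 measured genes was higher and 4 were lower. Bcl6, the male-biased repressor, had 5.32 CPM in the DKO and 90.1 CPM in the Cyp3a KO, 16.9-fold lower (15.04 to 19.2), but the Cyp27a1 KO and WT had 8.27 and 10.1 CPM, so here the Cyp3a KO was the liver that stood apart. Egfr, a growth hormone-dependent receptor, had 142 CPM in the DKO and 664 CPM in the Cyp3a KO. Igfals, the carrier subunit of circulating IGF-1, had 28.8 CPM in the DKO and 82.4 CPM in the Cyp3a KO. Igf1, which the naming rules do not cover, had 179 CPM in the DKO and 387 CPM in the Cyp3a KO. Cish, a STAT5-induced inhibitor, went the other way, with 12.1 CPM in the DKO and 2.80 CPM in the Cyp3a KO, and Socs2, a like inhibitor chosen after its value was seen, had 4.49 CPM in the DKO and 7.97 CPM in the Cyp3a KO (log2 fold -0.76).

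Secreted liver proteins and iron genes were lower at a few members. Hamp, which codes for the iron hormone hepcidin, had 1.40 CPM in the DKO and 272 CPM in the Cyp3a KO, 194-fold lower (155 to 246), with 112 CPM in the Cyp27a1 KO and 642 CPM in WT. Id1 and Smad7, which respond with Hamp to BMP signals, were 4.02-fold and 3.09-fold lower; of 17 measured iron genes these 3 were lower and Hmox1 was higher. Of 16 Serpina genes 7 were lower and 0 higher, among them Serpina3k with 3801 CPM in the DKO and 11329 CPM in the Cyp3a KO, Serpina1c with 2974 CPM in the DKO and 7049 CPM in the Cyp3a KO, and Serpina12 at 12.7-fold lower. Of 31 complement and coagulation genes C9, C6 and C8b of the membrane attack complex and the clotting factor F11 were lower, by 4.02-fold, 3.56-fold, 2.27-fold and 3.69-fold, and 0 were higher. Of 20 acute phase genes Orm3 and Lcn2 were higher, by 3.13-fold and 3.27-fold, and Apcs was 3.01-fold lower. Mug1, a plasma protease inhibitor and among the 10 most abundant genes past the rule, had 2711 CPM in the DKO and 5555 CPM in the Cyp3a KO.

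The lipogenic genes past the rule were higher in the DKO, and the fatty acid oxidation genes past it were lower. Of 18 measured lipogenic genes 6 were higher and 0 lower (median 0.34). Scd1, the stearoyl-CoA desaturase, had 10640.0 CPM in the DKO and 3525 CPM in the Cyp3a KO (3.02-fold higher), Thrsp, a lipogenic regulator, 592 CPM in the DKO and 225 CPM in the Cyp3a KO, and Acly, which makes the acetyl-CoA for the pathway, was 2.56-fold higher; Acaca, Fasn and Acss2 also passed. The relative Scd2, scarce in adult liver, reached 50.1 CPM in the DKO, against 3.10 CPM in the Cyp3a KO, while the Cyp27a1 KO and WT had 4.22 and 3.99 CPM. Of 31 PPAR-alpha and oxidation genes 6 were lower and 0 higher (median -0.38). The 4 named by rule were Vnn1, a pantetheinase, at 6.24-fold lower, and the fatty acid omega-hydroxylases Cyp4a14, Cyp4a32 and Cyp4a10 at 5.01-fold, 4.68-fold and 3.58-fold lower. The carnitine transferase Cpt1a, chosen after its value was seen as a standard target, had a log2 fold of -0.18. Ehhadh, at the high end of the list, had a log2 fold of 0.88 and did not pass. On deposited TPM 1 member of the list was higher, and on recentred TPM 0 were.

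Of 20 uptake and droplet genes, Cd36, a fatty acid carrier, was higher at 174 CPM in the DKO and 37.8 CPM in the Cyp3a KO, while G0s2, an inhibitor of triglyceride lipase, Fabp1, the fatty acid binding protein, and Plin4 were 9.80-fold, 2.77-fold and 2.62-fold lower. Apoa4 and Apoc2 were the 2 of 16 measured apolipoprotein and assembly genes past the rule, 2.58-fold and 2.25-fold higher. In glucose metabolism 3 of 21 genes were lower and 1 higher. Ppp1r3c and Ppp1r3b, which steer glycogen synthesis, were 12.4-fold and 2.37-fold lower, Pfkfb3, a glycolytic regulator, was 4.29-fold lower, and Hk2 had 2.23 CPM in the DKO and 0.799 CPM in the Cyp3a KO; on recentred TPM the log2 fold of Hk2 was -0.03.

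Clock genes split into both directions: of 19, 3 were higher in the DKO and 4 lower. Arntl fell 5.35-fold and Nr1d1 4.91-fold, and Nfil3 and Bhlhe41, both repressors, fell 5.598-fold and 12.8-fold. Per3 and Per2, clock repressors, were 4.39-fold and 3.34-fold higher, and the naming rules do not cover Per2. The 2 Cyp3a-null livers also stood apart from the other pair: Arntl had 28.9 CPM in the Cyp27a1 KO and 29.6 CPM in WT, and Dbp, a clock output factor chosen after its values were seen, had 50.03 CPM in the DKO, 28.9 CPM in the Cyp3a KO, 1.22 CPM in the Cyp27a1 KO and 2.06 CPM in WT. Genotype and time of sampling cannot be told apart here.

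ER chaperones, which fold secreted proteins, had log2 folds below 0 in 17 of 18 members, with a median of -0.66; 2 were lower by the rule, Sdf2l1 (3.17-fold) and Pdia6 (2.10-fold), and 0 were higher. Pdia6 lost its call under library-total scaling and on deposited TPM. Summed, the ER chaperone list held 3042 CPM in the DKO and 4781 CPM in the Cyp3a KO. The Cyp27a1 KO held 3651 CPM and WT 3649 CPM, so the Cyp3a KO had the highest sum. Cebpb and Trib3 of the ATF4 programme were 2.23-fold and 2.06-fold lower, and Trib3 lay at the threshold and lost its call under all scaling alternatives and both forms of TPM. The p53 targets Cdkn1a and Gdf15, a growth arrest protein and a stress hormone, were 3.42-fold and 2.45-fold lower, of 12 measured. Of 14 glucocorticoid-responsive genes Lcn2, Mt1 and Mt2 were higher and Dusp1 and Cdkn1a lower; the metallothionein Mt2 had 343 CPM in the DKO and 136 CPM in the Cyp3a KO. Of 15 measured immediate early genes Klf6 and Myc were 2.85-fold and 2.70-fold higher and Dusp1 was lower. Of 14 heat shock chaperones 0 passed. Over all genes 6.72% passed, so 0 in a set of 14 is near that share.

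Retinoid genes were higher in 7 of 23 measured and lower in 1. The retinoic acid hydroxylases Cyp26a1 and Cyp26b1 were 3.95-fold and 3.76-fold higher, and the receptor Rarb was 4.31-fold higher. Of 13 measured carboxylesterases 5 were lower and 1 higher; Ces3a had 452 CPM in the DKO and 2215 CPM in the Cyp3a KO, Ces1b and Ces3b were 3.19-fold and 3.09-fold lower, and Ces4a had 3 counts in the DKO and 80 in the Cyp3a KO, a ratio of 28.9 with a counting interval of 9.52 to 143. Cyp2d34, Cyp2u1, Cyp4f14 and Cyp4f17 were 6.04-fold, 3.72-fold, 2.54-fold and 2.48-fold lower, of 16 measured genes of the Cyp2d, Cyp2j and Cyp4f group and its kin. In the amino acid genes Cbs, which makes cystathionine, was 2.67-fold lower and Acmsd, of tryptophan breakdown, 2.16-fold higher, and these 2 of 32 are a share near the 6.72% of all genes. Among 19 pericentral genes the WNT targets Axin2 and Tbx3 were 2.91-fold and 2.66-fold lower, and Cyp27a1 and Cyp2a5, also on that list, are given above.

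Cell cycle genes were higher in 14 of 25 measured and lower in 0 (median log2 fold 1.18), but 8 of the 25 passed the level filter through the DKO library alone and the median was -0.01 among members with a mean of at least 5 CPM. Cdc20, which triggers anaphase, had 389 counts in the DKO and 10 in the Cyp3a KO, with 12 and 13 in the Cyp27a1 KO and WT. Ccnb1, cyclin B1, had 286 counts in the DKO and 11 in the Cyp3a KO. Rrm2, which makes deoxynucleotides, was 14.7-fold higher and Ccna2, cyclin A2, 11.1-fold higher. The replication genes Pcna and Tk1, chosen after their values were seen, had log2 folds of -0.00 and -0.70. Markers of Kupffer cells, the liver macrophages, moved the same way: 8 of 14 were higher, 0 were lower, and the summed level was 561 CPM in the DKO and 258 CPM in the Cyp3a KO, with 397 CPM in the Cyp27a1 KO and 388 CPM in WT. Which cells held the cell cycle transcripts, and the part of Kupffer cells in that result, was not tested.

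Among the Kupffer markers, Marco, a scavenger receptor, had 9.25 CPM in the DKO and 1.78 CPM in the Cyp3a KO, Vsig4, a complement receptor, 34.0 CPM in the DKO and 9.25 CPM in the Cyp3a KO, and Adgre1, a macrophage surface receptor, 33.3 CPM in the DKO and 9.29 CPM in the Cyp3a KO; Timd4 was 3.35-fold higher. Cd163 was at the low end with 9.82 CPM in the DKO and 15.9 CPM in the Cyp3a KO. None of the 14 was at 0 in any library. Of 13 monocyte and neutrophil markers 6 were measured, 2 of them through the DKO library alone. Cd14 and Lgals3 were higher, and the list median of 0.81 changed sign among members with a mean of at least 5 CPM. The summed level was 47.4 CPM in the DKO and 39.1 CPM in the Cyp3a KO, with 1 marker at 0 in each. Of 14 T, NK and B cell markers 2 were measured and Igkc was higher, with summed levels of 19.9 CPM in the DKO and 13.8 CPM in the Cyp3a KO and none at 0 in either. Endothelial markers summed to 360 CPM in the DKO and 321 CPM in the Cyp3a KO, and Lyve1 was the 1 of 11 past the rule (2.20-fold higher).

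Stellate and matrix genes summed to 233 CPM in the DKO and 306 CPM in the Cyp3a KO, with Col1a1 and Acta2 lower among 14 measured, 2.46-fold and 3.32-fold. Cholangiocyte markers summed to 520 CPM in the DKO and 404 CPM in the Cyp3a KO, where 1 marker was at 0, and Sox9 was lower among 8 measured (2.43-fold). Erythroid genes summed to 280 CPM in the DKO and 286 CPM in the Cyp3a KO, with Alas2 lower among 5 measured (3.52-fold). The part of these cell types in the results was not tested. Interferon response genes had a median log2 fold of 0.42 (0.22 on recentred TPM), with 23 of 26 members above 0 and a median of 0.41 in the Cyp27a1 KO over WT. Oasl1 alone passed the rule (2.34-fold higher; log2 fold 0.64 on recentred TPM), a share of members near the 4.02% of all genes that were higher. Of 16 guanylate-binding and related GTPases Gbp11 alone was higher, with 27.9 CPM in the DKO and 2.04 CPM in the Cyp3a KO. That share of members is also near the 4.02% of all genes. The median of 0.38 changed sign among members with a mean of at least 5 CPM. Of 19 antigen presentation genes 0 passed. In several further sets no gene passed: 0 of 30 respiratory chain genes, 0 of 30 ribosomal protein genes, 0 of 20 periportal and urea cycle genes, 0 of 8 xenobiotic receptor and P450 support genes and 0 of 9 partners of CYP27A1 were past the rule, with medians of -0.06, -0.15, -0.15, 0.27 and 0.21. Over all genes 6.72% passed, so 0 in the smallest of these sets is near that share.

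**Figure D4:**
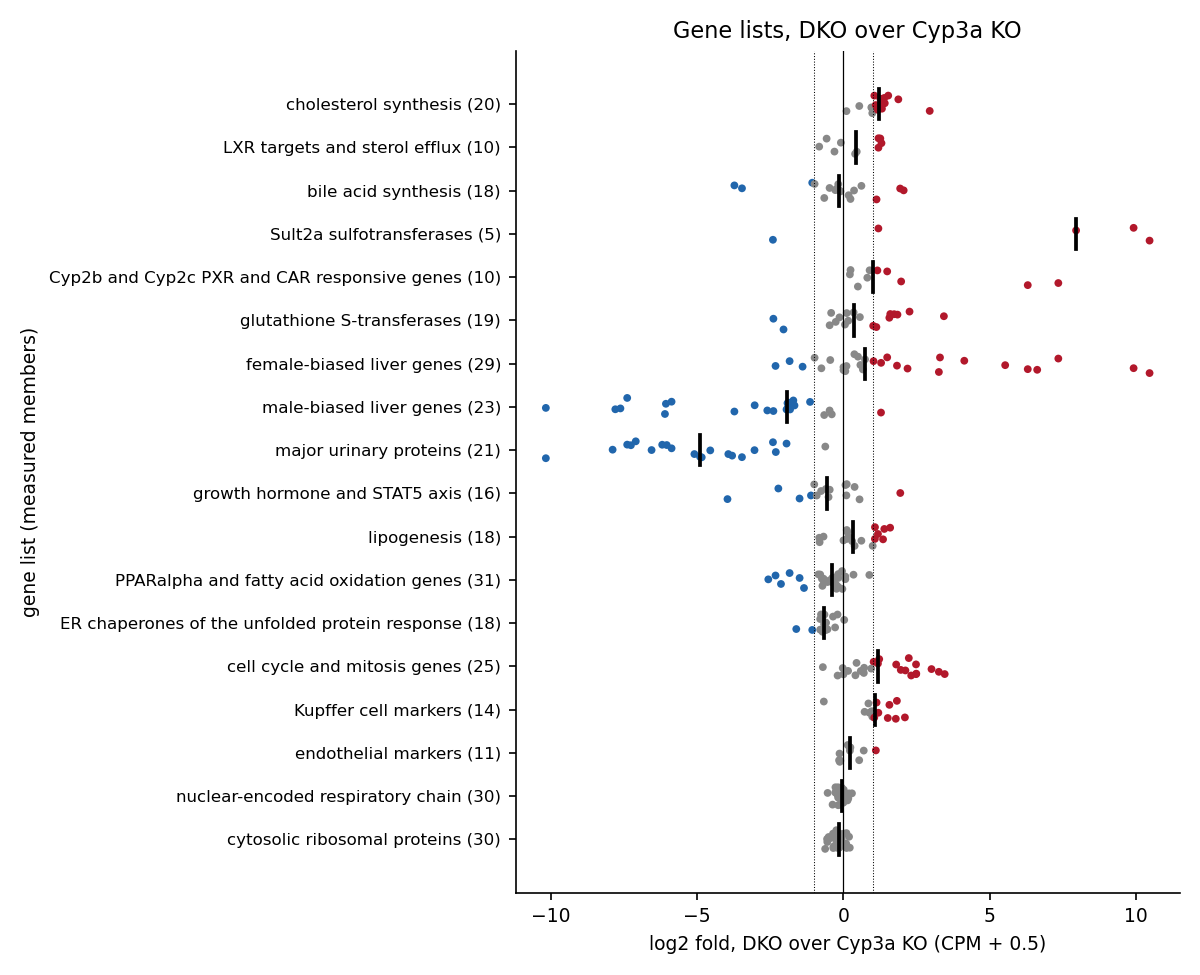
For 18 gene lists down the page, with the number of measured members, the log2 fold of DKO over Cyp3a KO of each member (red higher, blue lower, grey outside the rule) and the list median as a black bar; dotted lines mark 2-fold. Cholesterol synthesis lies wholly above 0 (median 1.21), major urinary proteins wholly below (median -4.90), and respiratory chain genes close to 0.

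Some of the largest folds fell outside these lists. The 15 largest named genes past the rule at a mean of at least 5 CPM included Lrtm2 with 31.4 CPM in the DKO and 0.260 CPM in the Cyp3a KO, Themis, known from T cell selection, with 17.0 CPM in the DKO and 0.280 CPM in the Cyp3a KO, Ly6d with 15.4 CPM in the DKO and 0.439 CPM in the Cyp3a KO, and H2-Q1, a non-classical MHC gene, with 63.4 CPM in the DKO and 4.19 CPM in the Cyp3a KO. Of the T, NK and B cell markers 2 of 14 passed the level filter, as given above. At that level 504 genes passed the rule, of which 40 were predicted genes and were passed over.

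With Cyp3a intact, the Cyp27a1 KO library was set against WT, a pair that shares no library with the DKO and the Cyp3a KO. In it 287 genes were higher (2.44%) and 160 lower (1.36%), together 3.81% of the 11743. Of the genes higher in the DKO, 116 were also higher in the Cyp27a1 KO, which is 24.6% of the 472 and 40.4% of the 287; of the lower genes 62 were shared, 19.6% of the 317 and 38.8% of the 160. A further 28 genes went opposite ways. Of the 789, 436 lay within 1.5-fold in the other pair. The share of all 11743 genes within that range was not counted, so the 436 have no baseline here. Shared higher genes with the largest smaller fold were Fam19a2 (log2 folds of 3.46 in the DKO pair and 4.10 in the Cyp27a1 KO pair), Gsta1 (3.43 and 4.15), H2-Q1 (3.77 and 3.11), Atp6v0d2 (4.13 and 2.96), Lrtm2 (5.39 and 2.93), Mogat2 (3.14 and 2.77), Prss8 (2.75 and 2.98) and Pls1 (2.74 and 3.35). Mogat2 acylates monoacylglycerol, Prss8 is a membrane protease and Pls1 an actin bundler. Shared lower genes were Cyp27a1, Mup7, Mup8, Hamp, Mup1, Cyp4a14, Mup11 and Slco1a1; Mup7 had log2 folds of -10.16 in the DKO pair and -2.94 in the Cyp27a1 KO pair, and Slco1a1 -7.62 and -2.12.

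Genes and lists can be set side by side in the 2 backgrounds. The cholesterol synthesis list median was 1.21 in the DKO pair and 1.12 in the Cyp27a1 KO pair, with 15 and 11 of 20 genes higher. Male-biased genes had medians of -1.94 and -0.50, and female-biased genes 0.73 and 0.59. Cyp7a1 had log2 folds of 2.06 in the DKO pair and 3.99 in the Cyp27a1 KO pair, and Gstm3 2.26 and 4.87. Both had the smaller fold where Cyp3a was deleted, but the levels behind these folds differed. Cyp7a1 was lower in the DKO than in the Cyp27a1 KO, as given above. The 7 listed Gstm genes summed to 15595.5 CPM in the DKO and 4468 CPM in the Cyp3a KO. In the other pair they summed to 5539 CPM in the Cyp27a1 KO and 1152 CPM in WT. Kupffer markers had medians of 1.09 and 0.07 and cell cycle genes 1.18 and -0.07, but 8 of these 25 passed the level filter through the DKO alone and the first median was -0.01 at a mean of at least 5 CPM. Each background is 1 pair of libraries, so a difference between the pairs was not tested.

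**Figure D5:**
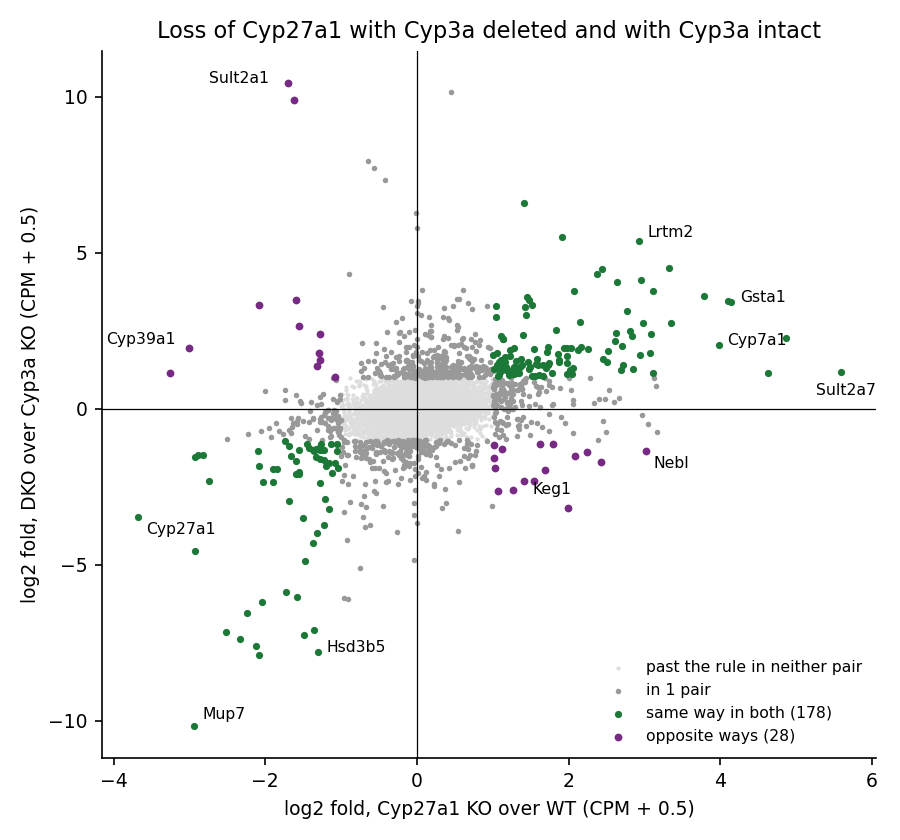
Each point is 1 of 11743 genes, with the log2 fold of Cyp27a1 KO over WT on the x axis and of DKO over Cyp3a KO on the y axis; green points passed the rule the same way in both pairs (178) and purple points opposite ways (28). Mup7 lies at the bottom left, Gsta1 at the upper right, and Sult2a1 at the upper left.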

How the data were processed

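Per the labels, total liver RNA of 1 male mouse per genotype was sequenced. A table of estimated counts for each symbol was deposited by the authors; 57.7% of its values were whole, and all were rounded here. They also deposited TPM values, used as a check. Per the submitters' processing notes, Trimmomatic 0.33, HISAT2 2.0.5, kallisto 0.43.1 and mm10 were used; which tool made the counts, whether strand was read and the annotation are not stated there. A row that names no gene was dropped; it held 0 counts. Symbols were matched to GENCODE M21 (GRCm38) for coordinates (32176 of 33639).

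Counts were scaled with TMM (edgeR 4.0.16, R 4.3.3; factors 1.08 in the DKO, 0.994 in the Cyp3a KO, 0.996 in the Cyp27a1 KO, 0.937 in WT), filtered at a mean of 1 CPM and compared as log2 of CPM plus 0.5, which understates folds of low genes. Zero counts were given a floor of 3 counts for bounds. The rule was tried on simulated counts. Their spread between libraries was assumed, because that between animals was not measured. The trial therefore cannot show how the rule performs for 1 mouse per genotype. Python 3.11.15, numpy 2.4.6, scipy 1.17.1 and pandas 2.3.3 were used; DESeq2 1.42.0 gave median-of-ratios factors only.

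The comparison, the 60 gene lists and the rules were chosen with earlier results of these data known. Genes were named by rule: Cyp27a1; measured members of the bile acid synthesis, Cyp3a, cholesterol synthesis and Sult2a lists; the 15 largest and 15 smallest folds past the rule at a mean of at least 5 CPM, passing over predicted genes; the 10 most abundant genes past the rule; the 8 highest and 8 lowest shared with the Cyp27a1 KO pair and up to 8 each way that were opposite; and up to 4 members past the rule of each other list, with members at a list's end. Slc51b, Per2, Igf1, Sult2a3, Sult2a4, Sult2a6, the Y-linked genes and the genes at the edge of the level filter have values but fall outside these rules. Any other gene is named without a value or marked in the text as picked after its value was known. Promoters are RefSeq 250-base windows before the start (GRCm38.p6). Some genes that these rules cover are not reported here.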

Additional observations from a re-analysis of the deposited data

Results flagged for a closer look

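In the 2 pairs of libraries, 28 genes passed the 2-fold rule in opposite directions. The 19 that the naming rule covers are given here as log2 folds. With 1 library per genotype the difference between pairs was not tested. The sulfotransferases Sult2a1 and Sult2a2 were higher by 10.45 and 9.91 in the DKO over the Cyp3a KO and lower in the Cyp27a1 KO over WT (-1.70 and -1.62). Cyp39a1, an oxysterol hydroxylase of bile acid synthesis, stood at 1.94 in the DKO pair and -3.0 in the Cyp27a1 KO pair. The same direction held for Defb1 (2.66 and -1.56), Chrm3 (2.40 and -1.28), Tff3 (1.57 and -1.28), Apoa4 (1.36 and -1.32) and Enc1 (1.02 and -1.08).

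Lower in the DKO and higher in the Cyp27a1 KO were Bhlhe41, a clock repressor (-2.65 and 1.06), Serpina7, which carries thyroid hormone (-2.61 and 1.26), Keg1 (-2.33 and 1.42), Xlr3a (-2.31 and 1.54), Nrep (-1.96 and 1.68), Moxd1 (-1.71 and 2.43), Apcs, a pentraxin (-1.56 and 1.02), Dct (-1.51 and 2.08), the P450 Cyp2c69 (-1.40 and 2.24), Nebl (-1.36 and 3.01) and the smooth muscle actin Acta2 (-1.16 and 1.02). Keg1 had 25.9 CPM in the DKO, 132 CPM in the Cyp3a KO, 122 CPM in the Cyp27a1 KO and 45.5 CPM in WT. Nebl had 17.8 CPM in the DKO, 46.3 CPM in the Cyp3a KO, 7.01 CPM in the Cyp27a1 KO and 0.429 CPM in WT, so for both genes WT was lower than the Cyp3a KO.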

How the results depend on the processing

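No paired analysis was possible because each genotype has 1 library and the labels carry no replicate numbers; leaving out a library was not possible for the same reason. The 472 higher genes became 736 on deposited TPM, 269 at a mean of at least 5 CPM, 311 with a pseudocount of 2 and 108 at 4-fold. The 317 lower genes became 211 on deposited TPM and 84 at 4-fold. Under library-total scaling 584 were higher and 260 lower (69.2% higher, median gene at 0.09), under median-of-ratios scaling 486 and 307, and both counts stayed within 1.5 times under recentred TPM, no level filter, a filter on the 2 libraries compared, a pseudocount of 0.1 and no counting interval. Of 183 named genes past the rule, 0 changed sign in a setting where they passed its level filter, while Hk2, below 1 TPM, had a log2 fold of -0.03 on recentred TPM; 179 kept their call under library-total scaling, 182 under median-of-ratios scaling, and, of 176 also measured there, 161 on deposited and 169 on recentred TPM. A pseudocount of 2 kept 170 and lost Tff3, Enc1, Moxd1, Hk2, Trib3, Oasl1, Ces4a, Fmo4, Cyp4f17, Lgals3, Igkc, Acta2 and Sox9. Calls lost on deposited TPM were Hsd3b7, Nebl, Serpina1c, Mug1, Plin4, Ppp1r3b, Cebpb, Trib3, Pdia6, Oasl1, C8b, Hsd17b2, Cyp4f17, Col1a1 and Sox9, and on recentred TPM Mvk, Enc1, Abcg1, Trib3, Oasl1, Fmo4 and Sox9; the cause was not tested. Of 60 list medians 22 changed sign in at least 1 setting; of the 9 with a median of at least 1 in size, only the cell cycle list did, at -0.013 with a mean of at least 5 CPM. Depth limited genes under 3 counts, 0.0554 CPM in the DKO and 0.0599 CPM in the Cyp3a KO.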

Other observations

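Several predicted genes passed over by the naming rule had folds as large as those named; they were chosen after their values were seen. Gm28661 had 30737 counts in the DKO, 0 in the Cyp3a KO, 54376 in the Cyp27a1 KO and 37416 in WT. Its neighbour on chromosome 1, Gm10925, had 35072 counts in the DKO, 129 in the Cyp3a KO, 39612 in the Cyp27a1 KO and 54772 in WT, so in both the Cyp3a KO library was the one that stood apart. How reads of similar copies were assigned in each library is not given in the sources used here, and its part in these values was not tested. Gm21320 had 2038 CPM in the DKO, 18042 CPM in the Cyp3a KO, 15346 CPM in the Cyp27a1 KO and 24451 CPM in WT.

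The next genes were also picked after their values were known. Slc10a2, the apical bile acid uptake carrier known from ileum and bile ducts and on no list, had 78.4 CPM in the DKO and 14.98 CPM in the Cyp3a KO, with 32.8 CPM in the Cyp27a1 KO and 37.0 CPM in WT. Hao1, a peroxisomal glycolate oxidase, had 23.6 CPM in the DKO and 253 CPM in the Cyp3a KO, with 199 CPM in the Cyp27a1 KO and 205 CPM in WT. Dio1, which activates thyroid hormone, had 21.5 CPM in the DKO and 96.9 CPM in the Cyp3a KO. Akr1b7, an aldose reductase relative, had 57.2 CPM in the DKO and 5.19 CPM in the Cyp3a KO.

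Genes close to Cyp27a1 on chromosome 1 passed the rule in these numbers. Within 10 Mb it was 4 of 64 measured genes (Erbb4, Serpine2, Tns1 and Wdfy1, 6.25%). Within 20 Mb it was 15 of 185 (8.11%), and on other chromosomes 712 of 10827 (6.58%). Of those within 10 Mb, Erbb4, Serpine2 and Wdfy1 also passed in the Cyp27a1 KO pair, as did Chpf and Igfbp5. In that pair 3.81% of all genes passed. The count and recentred TPM log2 folds differed by over 1 for 28 of the measured genes.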
